A study of Mus musculus with 11 samples.

Results

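The genes described here are 8 immunoglobulin and plasma cell genes, *Igkc*, *Ighm*, *Ighd*, *Igha*, *Ighg2b*, *Iglc2*, *Jchain* and *Mzb1*, taken by symbol from the 28692 genes of the count matrices, and all 8 were found. They were followed in 11 single-cell RNA libraries of mouse kidney, in which a cell barcode marks the droplet of a transcript and a second random tag, the UMI, the single molecule. A level is given as UMIs per 1e6 UMIs of the barcodes that were summed (CPM). The mice were male C57Bl/6 animals of 10 weeks with no altered gene. In unilateral ischemia-reperfusion (UIR) the left renal pedicle was clamped for 30 minutes at 37°C, and in unilateral ureteral obstruction (UUO) the left ureter was tied for good. Injured kidneys were taken at Day 28, and the controls were naive kidneys. The groups hold 5 control libraries (Ctrl, N1, N2, AN1 and AN2, where N stands for normal and AN for additional normal), 3 UIR libraries and 3 UUO libraries, each from a mouse of its own. Values of the control libraries are listed in that order, and those of each injury model in the order unnumbered library, library 1, library 2. Only cells that came through dissociation with a cold-active protease were measured, so that fewer cells of a type in the kidney and fewer in the suspension cannot be told apart.

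An antibody joins 2 kinds of chain: a light chain, kappa or lambda, and a heavy chain, whose constant gene sets the class of the antibody. Resting B cells place IgM and IgD on their surface, whereas plasma cells make little surface antibody and secrete large amounts of 1 class, often after a switch to IgG or IgA. IgM and IgA are secreted as polymers held together by the joining chain, and IgA of this form is carried across epithelia by the polymeric immunoglobulin receptor.

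On the GRCm38 build, the heavy chain genes lie in a row on the minus strand of chromosome 12, in the order *Igha* (chr12:113254830-113260236), *Ighg2b* (chr12:113302965-113307933), *Ighd* (chr12:113406604-113416324) and *Ighm* (chr12:113418558-113422730). The kappa constant gene *Igkc* lies at chr6:70726435-70726966 on the plus strand, and the lambda constant gene *Iglc2* at chr16:19198396-19200351 on the minus strand. *Jchain*, which encodes the joining chain, lies at chr5:88519809-88527891 on the minus strand. The mouse lambda locus holds near-identical constant genes, and the first 60 aligned coding bases of 3 of them are shown to compare them. Capitals mark bases that differ from *Iglc2*, and all 3 stretches are read 5′ to 3′ on the minus strand, at chr16:19198793-19198852, chr16:19065622-19065681 and chr16:19062012-19062071.
Iglc2: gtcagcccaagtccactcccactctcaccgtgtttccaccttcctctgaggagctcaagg
Iglc3: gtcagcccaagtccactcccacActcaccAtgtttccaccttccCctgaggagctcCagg
Iglc1: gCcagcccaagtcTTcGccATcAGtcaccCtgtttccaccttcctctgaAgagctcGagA
In this stretch *Iglc3* differs from *Iglc2* at 4 bases and *Iglc1* at 12. Over their whole coding parts, 303 of 314 bases of *Iglc2* and *Iglc3* are the same (96.5%), so reads of these genes may be shared or lost in counting and levels of *Iglc2* are uncertain. The counts are made from the 3′ ends of transcripts, and the parts past the coding bases were not compared.

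A control library held between 91920461 and 110914244 UMIs, a UIR library between 82522753 and 117043590, and a UUO library between 49503312 and 60918546. After removal of barcodes of poor quality and of predicted doublets, 10274 control, 16944 UIR and 13376 UUO cells were kept. Over the limit of 30% mitochondrial UMIs lay 57.0% (Ctrl) to 78.8% (AN2) of a control library's barcodes called as cells. For a UIR library this share was 23.9% (unnumbered) to 37.3% (UIR1), and for a UUO library 3.15% (unnumbered) to 7.99% (UUO2). Numbers and shares of kept cells thus depend on this limit, which removed unlike parts of the groups. At a limit of 50%, tubular cells of N2 numbered 3314 in place of 1450, and those of UUO2 566 in place of 468. Any pair of libraries had 3 to 41 cell barcodes in common, but UMIs on the cell barcodes of another library were far more frequent within 3 sets of libraries (Ctrl with the unnumbered UIR and UUO libraries, N1 and N2 with the 4 numbered injury libraries, and AN1 with AN2) than between them. Within a set, such barcodes took a median of 5.11% of the UMIs in a library's empty droplets, and between sets 0.20%. Empty droplets are the low-count barcodes described below, so these are not shares of whole libraries. No label gives a batch for the injury libraries, so these sets were read from the barcodes, and shared barcodes were also left out as an alternative. B cells (25 in control, 15 in UIR and 220 in UUO libraries, and 41, 58 and 235 with predicted doublets kept) are clusters named by *Cd79a*, *Ms4a1* and like genes, formed without immunoglobulin genes. Plasma-like barcodes hold at least 5 of the 7 genes *Tnfrsf17*, *Derl3*, *Prdm1*, *Irf4*, *Pou2af1*, *Eaf2* and *Slamf7*, none of which is among the 8 genes.

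Over whole libraries, all 8 genes stood higher in every UUO library than in every control library, and the same held for UIR. *Igkc*, the light chain of most mouse antibodies, stood at 9.94, 14.1, 13.6, 5.73 and 5.89 CPM in the controls, 374, 514 and 496 CPM in UIR, and 589, 1032 and 5651 CPM in UUO. The UIR libraries lay close together, whereas UUO2 stood well above the other UUO libraries. Without UMIs on cell barcodes of other libraries, the control values of *Igkc* were 8.60, 6.42, 6.13, 5.79 and 5.93 CPM. Its log2 fold change was 4.48 ± 0.65 (SE, computed back from the test statistic) in UIR and 6.49 ± 0.71 in UUO (edgeR quasi-likelihood test, adjusted p = 7.04e-05 and 3.41e-06). *Iglc2*, a lambda light chain gene, stood at 1.90, 0.946, 0.772, 0.834 and 1.31 CPM in the controls, 5.45, 7.0 and 5.27 CPM in UIR, and 28.5, 13.1 and 77.1 CPM in UUO. Here the 3 groups did not overlap, and the rise was 1.37 ± 0.46 in UIR (adjusted p = 0.0192 with edgeR) and 3.71 ± 0.46 in UUO (adjusted p = 1.08e-05). In bulk sums such as these, more cells of a type and more RNA per cell cannot be told apart.

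**Figure D1:**
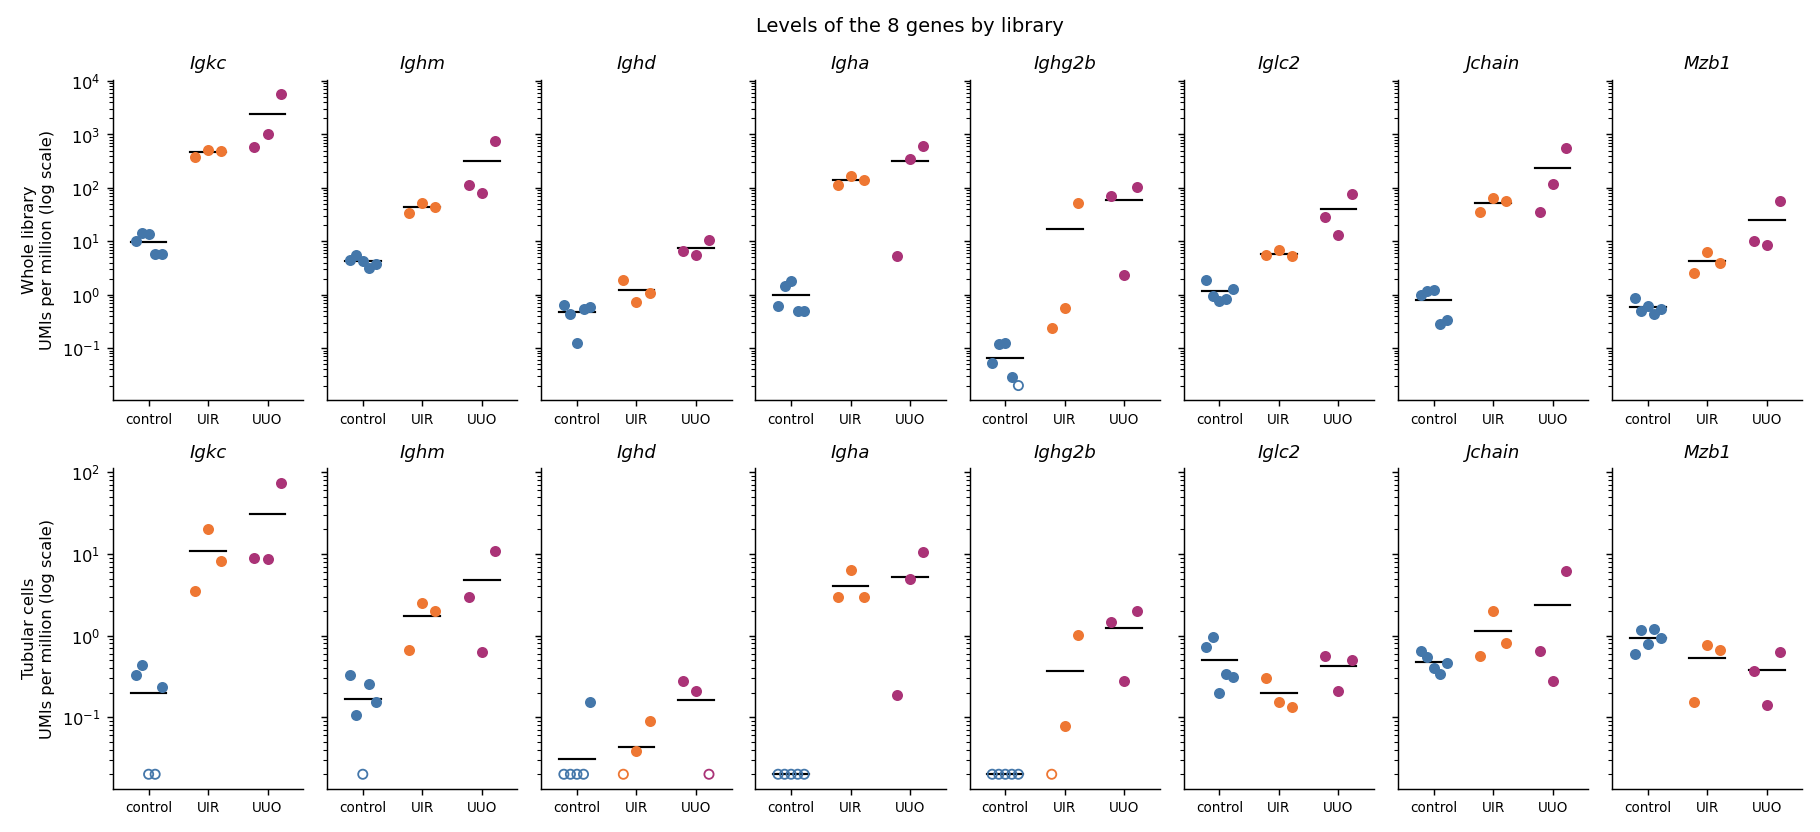
Levels of the 8 genes in CPM (log scale) by group, in whole libraries (top) and in tubular cells (bottom). Each point is a library, the bar is the mean of the group, and open circles at the foot are libraries with 0 UMIs; in whole libraries every injured library lies above every control library for all 8 genes.

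The heavy chain genes are given by class, first those of resting B cells. *Ighm*, the IgM heavy chain, stood at 4.48, 5.45, 4.28, 3.23 and 3.84 CPM in the controls, 33.7, 52.6 and 43.5 CPM in UIR, and 114, 80.4 and 746 CPM in UUO. Every UUO library lay above every UIR library, and the rise over control was 2.29 ± 0.60 in UIR and 4.76 ± 0.63 in UUO (edgeR, adjusted p = 0.00483 and 2.06e-05). *Ighd*, the IgD heavy chain of mature B cells, stood at 0.636, 0.446, 0.124, 0.547 and 0.586 CPM in the controls, 1.88, 0.718 and 1.07 CPM in UIR, and 6.55, 5.55 and 10.5 CPM in UUO. It was the 1 gene of the 8 that did not pass the test in UIR (log2 fold change 0.33 ± 0.42, adjusted p = 0.505 with edgeR), while in UUO it rose by 2.56 ± 0.40 (adjusted p = 8.86e-05).

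*Igha*, the IgA heavy chain, stood at 0.63, 1.47, 1.83, 0.499 and 0.505 CPM in the controls, 112, 167 and 142 CPM in UIR, and 5.33, 350 and 604 CPM in UUO. The unnumbered UUO library thus lay below all 3 UIR libraries, and the other UUO libraries above them. Its rise over control was 6.09 ± 1.03 in UIR and 6.88 ± 1.05 in UUO (edgeR, adjusted p = 0.000223 and 6.95e-05). *Ighg2b*, an IgG heavy chain, stood at 0.0539, 0.120, 0.124, 0.0288 and 0 CPM in the controls, 0.242, 0.564 and 51.2 CPM in UIR, and 69.4, 2.36 and 105 CPM in UUO. UIR2 and 2 of the UUO libraries carried nearly all of it, and in UIR its rise (6.97 ± 1.92, adjusted p = 0.00667 with edgeR) was lost without UIR2 (1.75, adjusted p = 0.429). Other IgG genes were as uneven, with *Ighg1* at 217 and *Ighg2c* at 448 CPM in UUO2, and *Ighg3* at 29.0 CPM in UIR1 and 79.7 CPM in the unnumbered UUO library.

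The genes of assembly and secretion rose with the chains. *Jchain* stood at 0.981, 1.16, 1.24, 0.288 and 0.343 CPM in the controls, 36.1, 64.3 and 57.7 CPM in UIR, and 35.2, 119 and 565 CPM in UUO. The unnumbered UUO library, which was low in *Igha*, also had the lowest *Jchain* of the injured libraries. *Mzb1*, at chr18:35647267-35649367 on the minus strand, encodes a chaperone of immunoglobulin assembly in the endoplasmic reticulum. It stood at 0.852, 0.50, 0.618, 0.441 and 0.541 CPM in the controls, 2.52, 6.37 and 3.94 CPM in UIR, and 10.0, 8.42 and 56 CPM in UUO, so that the 3 groups did not overlap. In edgeR's test *Jchain* rose by 5.03 ± 0.78 in UIR and 6.83 ± 0.82 in UUO (adjusted p = 0.000120 and 8.34e-06), and *Mzb1* by 1.87 ± 0.60 and 3.99 ± 0.60 (adjusted p = 0.0153 and 5.78e-05).

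In all, 7 of the 8 genes were called higher in UIR and 8 in UUO at an adjusted p under 0.05, where 36.2% and 41.8% of the 17420 genes tested were called higher. The median log2 fold change of the 8 was 3.39 in UIR and 5.63 in UUO, against 0.07 and 0.10 over all genes. Genes of other cell types rose in the same sums. Of 11 genes of macrophages, T/NK cells, neutrophils, red cells and endothelium (*Lyz2*, *C1qa*, *Ccl5* and others), 7 were called higher in UIR and 10 in UUO with medians of 2.58 and 3.56, and their summed level ran from 529 to 1708 CPM in control, from 5021 to 7098 CPM in UIR and from 15832 to 19003 CPM in UUO. Their part in the levels of the 8 genes was not tested. Every injured library lay above every control library for all 8 genes in both models, which 65.6% of genes showed in UIR and 74.2% in UUO on the same CPM scale. For 5 of the 8 every UUO library lay above every UIR library, as for 56% of genes. Scaling by library size alone, without TMM factors, moves the median of all genes to 1.08 in UIR and 1.54 in UUO, so that CPM values of most genes stand higher in injury and the fold changes are the values to read. Between the models, *Ighd* (2.23 ± 0.46, adjusted p = 0.00265), *Ighm* (2.47 ± 0.69, adjusted p = 0.0151), *Igkc* (2.01 ± 0.72, adjusted p = 0.0450), *Iglc2* (2.34 ± 0.50, adjusted p = 0.00340) and *Mzb1* (2.12 ± 0.63, adjusted p = 0.0204) were higher in UUO than in UIR with edgeR. These are 5 of 8, where 16.3% of genes were called higher. *Jchain* (1.80, adjusted p = 0.0892), *Igha* (0.79, adjusted p = 0.566) and *Ighg2b* (1.45, adjusted p = 0.446) did not pass the test. Without UUO2, 2 of the 8 were called between the models, and *Mzb1* (0.61, adjusted p = 0.186) and *Ighm* (0.68, adjusted p = 0.0860) were among those lost, and 2 were called also without the unnumbered UIR library. Within the set of N1, N2 and the numbered injury libraries alone, 3 of the 8 were called higher in UIR, 7 in UUO and 2 between the models. The shares of 36.2%, 41.8% and 16.3% belong to the fit of all libraries, so counts from fewer libraries are not compared with them.

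Most *Igkc* UMIs of the injured libraries sat on few barcodes. Plasma-like barcodes (1, 5 and 4 in UIR and 2, 4 and 19 in UUO) held 87.1%, 50.02% and 84.4% of all *Igkc* UMIs in UIR and 69.9%, 87.5% and 86.7% in UUO. The totals behind these shares were 30893, 60181 and 48426 *Igkc* UMIs in UIR and 29182, 62853 and 286859 in UUO. No control library held a plasma-like barcode, and its 598 to 1320 *Igkc* UMIs were spread differently in each. B cells held 43.6% of them in Ctrl and 55.9% in AN2, barcodes of 10 to 100 UMIs held 69.0% in N1 and 68.9% in N2, and called barcodes that were not kept held 50.5% in AN1. *Ighm* and *Ighd* were spread otherwise. Plasma-like barcodes held 1, 1585 and 0 *Ighm* UMIs in UIR and 89, 0 and 28177 in UUO, where kept cells other than B, tubular and plasma-like held 1271, 2162 and 2428 in UIR and 2224, 2269 and 2808 in UUO. Of *Ighd*, plasma-like barcodes held 1 UMI in UIR1 and 0 in the other libraries.

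**Figure D2:**
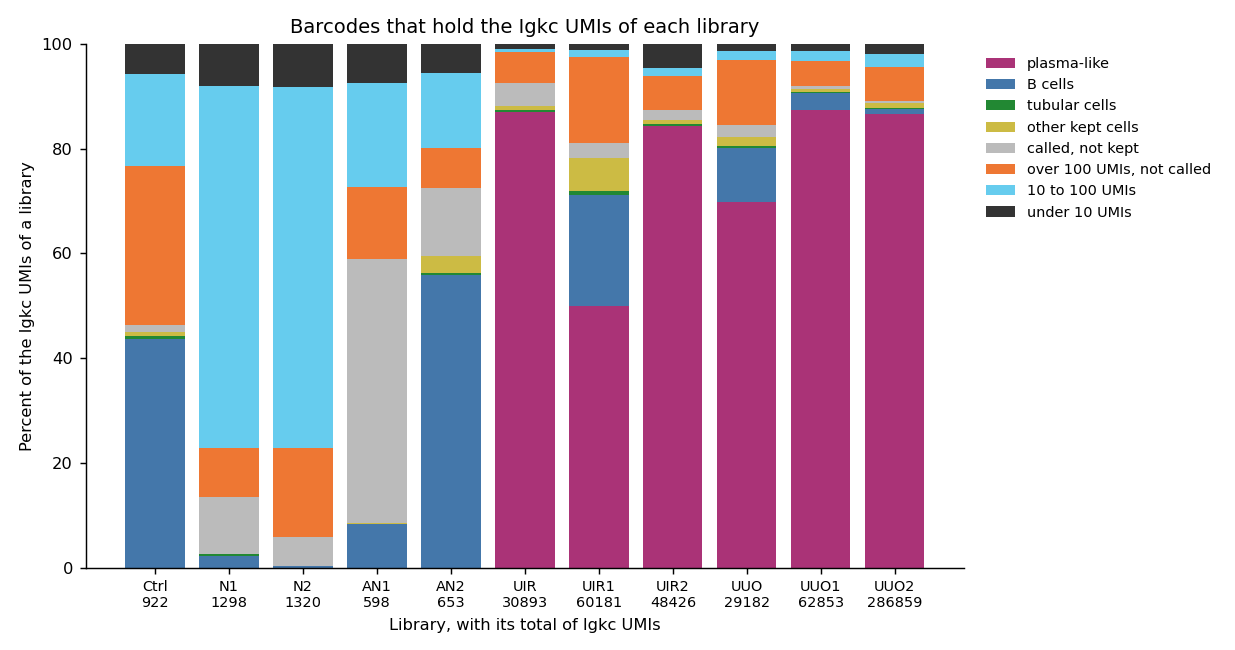
Share of each library's *Igkc* UMIs (percent) by the kind of barcode that holds them, with the library's total of *Igkc* UMIs under its name. Plasma-like barcodes hold 50.02% to 87.5% in the injured libraries and 0% in the controls.

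With plasma-like barcodes taken out, *Igkc* stood at 48.4, 257 and 77.6 CPM in UIR and 178, 130 and 763 CPM in UUO, all above the controls. In UIR1 a single B cell barcode with 4 of the 7 markers held 12488 of these *Igkc* UMIs, 4502 of *Igha* and 2348 of *Jchain*, and without it *Igkc* in UIR1 stood at 150 CPM, *Igha* at 30.9 in place of 69.4 CPM and *Jchain* at 9.85 in place of 29.9 CPM. Of the 8 genes, 7 lay higher in every UIR library than in every control library and 8 in every UUO library, where 65.6% and 74.3% of genes did so in the same sums, and the 7 stayed 7 without that barcode. *Iglc2* was the exception in UIR, at 4.05, 4.14 (2.21 without the barcode) and 1.82 CPM, where UIR2 fell below Ctrl. Every UUO library lay above every UIR library for 3 of the 8, *Ighm*, *Ighd* and *Iglc2*, where 56.5% of genes did so, a share that the 8 genes do not exceed. The share of *Ighd* UMIs on B cells was 58.3%, 71.6% and 72.7% in UUO and 1.94%, 23.8% and 0% in UIR, where called barcodes that were not kept held 65.2%, 28.6% and 50%. Of *Jchain* in UUO, plasma-like barcodes held 74.9%, 93.2% and 91.5%. The sums without plasma-like barcodes are not free of other barcodes rich in immunoglobulin. In the series 5 barcodes over 10% immunoglobulin UMIs were not plasma-like, and only the B cell barcode of UIR1 was left out. Uncalled barcodes over 100 UMIs also held 1781, 9955 and 3182 *Igkc* UMIs in UIR and 3597, 2975 and 18519 in UUO. The source of these UMIs was not tested.

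As a share of kept cells, plasma-like barcodes made up 0.0444% ± 0.0169 (SD, n = 3) in UIR and 0.0408% ± 0.0382 (n = 3) in UUO. None was kept in the controls, where a count of 0 allows up to 0.119% to 0.161% per library and 0.0292% over the 10274 kept cells of the group. The difference from control gave p = 0.0357 in UIR, the smallest that 5 against 3 libraries allow, and p = 0.214 in UUO (exact permutation tests, two-sided, n = 5 and 3). With every control at 0, any share above 0 in each UIR library gives this p. As a share of kept immune cells, UIR stood at 0.0834%, 0.143% and 0.120%. A count of 0 there allows up to 2.14% to 3.49% in a control library. A lack of plasma-like cells in the controls thus cannot be told from few immune cells sampled. After the doublet score, 14 of the 35 plasma-like barcodes were kept (8 in UIR and 6 in UUO), and all 19 of UUO2 were removed. With predicted doublets kept, the shares were 0.0231%, 0.0621% and 0.0674% in UIR and 0.0431%, 0.0700% and 0.463% in UUO, and UUO then also reached p = 0.0357 against control (exact permutation test, n = 5 and 3). All 35 are described in what follows. Intervals and limits given for a count of 0 cover counting error only.

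The 35 plasma-like barcodes were large, at 11703 to 65872 UMIs with a median of 32359, and immunoglobulin genes took 14.04% to 73.4% of these UMIs (median 51.0%). Marker genes and immunoglobulin share went together in their medians: the 43774 barcodes with 2 or fewer of the 7 markers had medians of at most 0.014%. Single barcodes departed from this, with up to 33.7% immunoglobulin UMIs at 0 markers and 29.7% at 3, so the rule misses some barcodes rich in immunoglobulin. *Igkc* was the leading light chain in all 35, at 84.9% to 99.9% of light chain UMIs, and no barcode led with lambda. A single heavy chain gene took 96.5% to 100% of heavy chain UMIs in each, and over 99% in 32. *Igha* led in 20 barcodes, *Ighm* in 5, *Ighg2c* in 4, *Ighg2b* in 3, *Ighg1* in 2 and *Ighg3* in 1.

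The class of antibody differed between libraries of the same model. In UIR, *Igha* led in the 1 barcode of the unnumbered library, in 4 of 5 in UIR1 and in 3 of 4 in UIR2, with *Ighm* and *Ighg2b* leading in 1 each. In UUO1 all 4 led with *Igha*, whereas the 2 barcodes of the unnumbered UUO library led with *Ighg2b* and *Ighg3*. UUO2 was the most mixed, with 8 *Igha*, 4 *Ighm*, 4 *Ighg2c*, 2 *Ighg1* and 1 *Ighg2b* barcodes. The low *Igha* of the unnumbered UUO library as a whole, 5.33 CPM, thus went with a plasma-like set that held no *Igha* barcode. The *Ighg2b* of UIR2, 51.2 CPM, came with the 1 *Ighg2b* barcode among the UIR libraries.

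*Jchain* and *Mzb1* were found in all 35 plasma-like barcodes, at 20 to 4415 UMIs (median 1056) and 8 to 381 UMIs (median 91). *Jchain* was highest beside the classes that form polymers: its median was 49977 CPM in *Igha* barcodes (11398 to 84705), 49774 CPM in *Ighm* barcodes (1059 to 80647) and 15336 CPM in *Ighg* barcodes (3833 to 39261). The ranges overlap, barcodes of 1 mouse are not replicates, and 19 of the 35 come from UUO2, so the order is given as a description. *Ighd*, the mark of resting B cells, was at 0 in 34 of the 35 and at 1 UMI in the other.

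**Figure D3:**
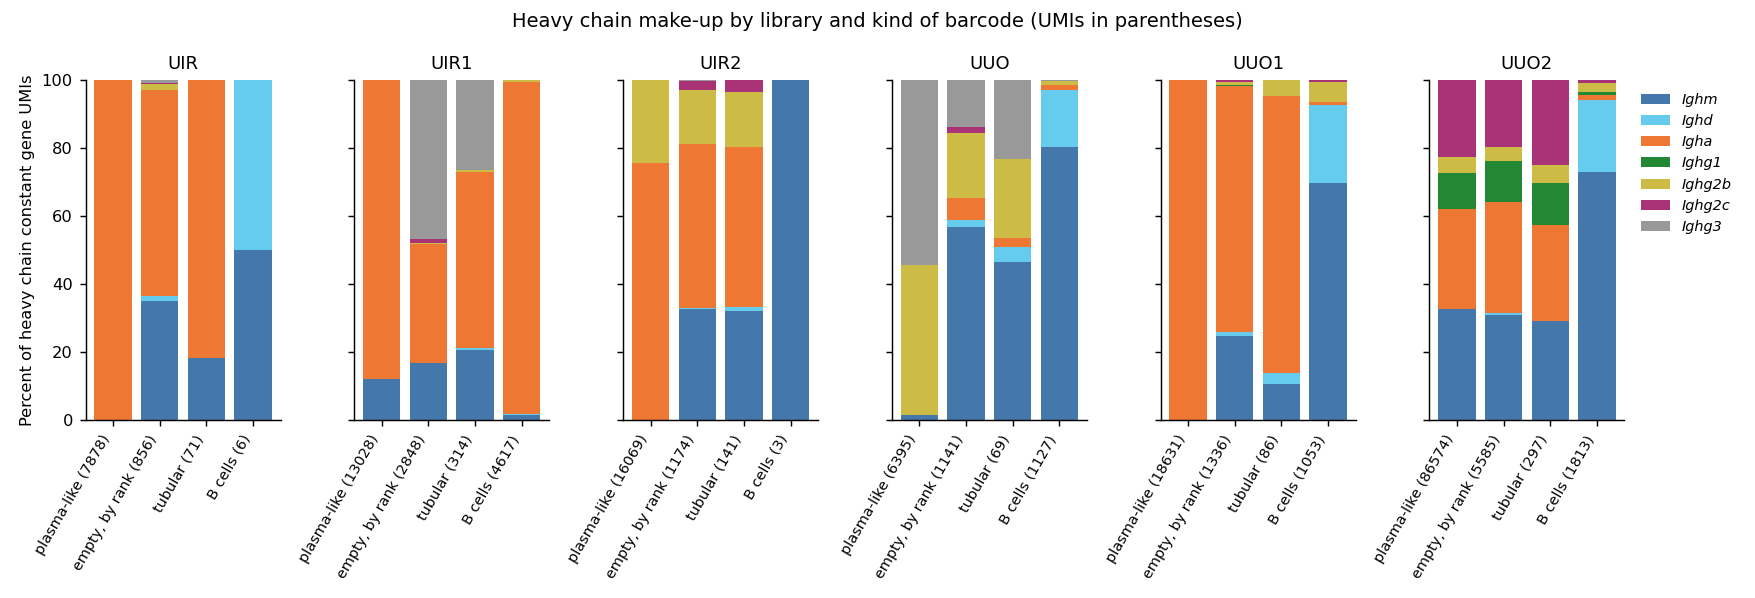
Percent of heavy chain constant gene UMIs taken by each gene, by injured library and kind of barcode, with the UMIs behind each bar in parentheses. *Igha* takes most of the plasma-like bar in the 3 UIR libraries and UUO1, the unnumbered UUO library holds *Ighg2b* and *Ighg3*, and B cells of the UUO libraries hold *Ighm* and *Ighd*.

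Variable segments, which a cell picks once when it builds its antibody, were repeated as pairs between some barcodes, most of them in UUO2. The 35 barcodes held 26 distinct pairs of leading heavy and kappa segments. The pair *Ighv3-8* with *Igkv12-41* led in 6 barcodes of UUO2, of which 4 carried *Igha* and 2 *Ighg2c*, on 5 to 74 *Ighv* and 13 to 98 *Igkv* UMIs. Their cell barcodes are shown because near-identical barcodes can be read errors of one another, and these differ at 9 to 15 of 16 bases.
Ighg2c barcode: atcacagtcccaactc
Igha barcode: acatgcacacaccttc
Ighg2c barcode: gtgaggacagcatact
Igha barcode: aaagtgagtgagcagt
Igha barcode: ctgtgaatcaaacgaa
Igha barcode: tttggagtcaccgggt
*Ighv3-8* was also the heavy segment with most UMIs in the series, 298 of its 300 in UUO2, and 402 of the 407 UMIs of *Igkv12-41* lay there. Another 3 pairs were repeated in 2 barcodes each: *Ighv6-6* with *Igkv17-121* on *Ighg1* and *Ighv8-8* with *Igkv4-59* on *Ighm* in UUO2, and *Ighv1-20* with *Igkv4-57-1* on *Igha* in UUO1. Between libraries, 1 pair was repeated, *Ighv1-26* with *Igkv3-1* in UIR1 and UUO2, but in UIR1 it rests on 1 *Ighv* UMI. Whether such barcodes stem from 1 clone was not tested, since 3′ counts hold no junction sequence.

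B cells carried the chains in other proportions. In the 85, 61 and 74 B cells of the UUO libraries, *Igkc* stood at 9132, 6985 and 6572 CPM, against 414194, 425327 and 346697 CPM in the plasma-like barcodes of the same libraries. *Ighm* stood at 2749, 2629 and 3330 CPM and *Ighd* at 574, 867 and 974 CPM in these B cells. Of heavy chain UMIs, *Ighm* took 80.3%, 69.7% and 72.8% and *Ighd* 16.8%, 23.0% and 21.3%. *Iglc2* reached 1507, 1934 and 1862 CPM, and lambda constant genes took 30.6%, 37.5% and 37.5% of light chain UMIs in B cells, against 0.3% to 3.7% in plasma-like barcodes of the injured libraries. *Mzb1*, known also from B cells, stood at 580, 390 and 426 CPM, while *Jchain* stayed at 9.11, 0 and 5.05 CPM.

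Control B cells were few, with 8, 1, 1, 4 and 11 per library, and the fullest of these, Ctrl and AN2, had *Igkc* at 9871 and 8824 CPM. In UIR the numbers were 2, 12 and 1, since the doublet score removed 26 of 28 B cells of the unnumbered library, 5 of 17 of UIR1 and 12 of 13 of UIR2. With predicted doublets kept, *Ighm* stood at 2755, 3663 and 2588 CPM in UIR B cells and 2518, 2365 and 3219 CPM in those of UUO, *Ighd* at 827, 235 and 793 CPM and 521, 735 and 900 CPM, and *Igkc* at 7917, 132893 and 7493 CPM and 8272, 6400 and 6282 CPM. The groups overlap for *Ighm* and *Ighd*. Of 6 genes tested on these sums, 0 were called between the models with edgeR, where 0% of 2896 genes were, and 2 had an unadjusted p under 0.05 (*Igkc* and *Mzb1*, both lower in UUO). The high *Igkc* of UIR1 came from 1 barcode. This barcode, among the 12 of UIR1 after the doublet score, with 4 of the 7 plasma markers and 59.5% immunoglobulin UMIs, held 12488 of their 12699 *Igkc* UMIs. Without it the other 11 had *Igkc* at 7059 CPM and neither *Igha*, *Ighg2b* nor *Jchain*. That barcode fell short of the plasma-like rule by 1 marker, and it accounts for the tall *Igha* bar of UIR1 B cells in the plot of heavy chain make-up.

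**Figure D4:**
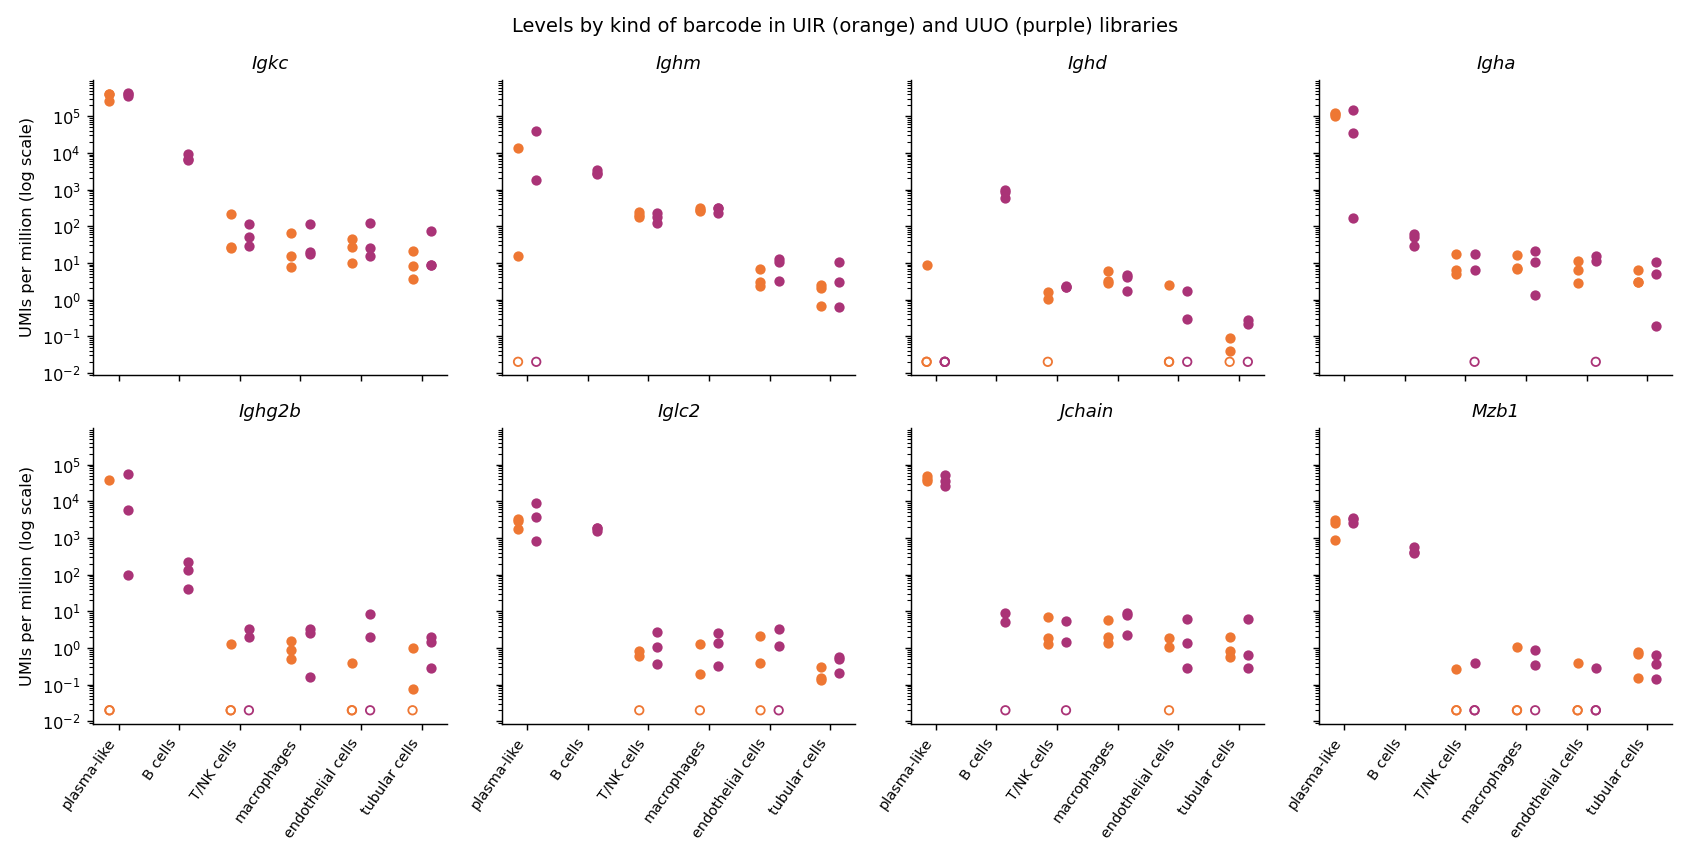
Levels of the 8 genes in CPM (log scale) by kind of barcode in the UIR (orange) and UUO (purple) libraries, for classes of at least 20 cells and for plasma-like barcodes of any number; open circles at the foot are libraries with 0 UMIs. *Igkc* and *Jchain* fall steeply from plasma-like barcodes to other classes, whereas *Ighm* stays at 236 to 314 CPM in macrophages.

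Outside B cells and plasma-like barcodes, *Igkc* and *Ighm* were spread differently over the classes. *Igkc* in macrophages was at 0 in all 5 controls, at 7.69, 64.8 and 15.8 CPM in UIR, and at 20.2, 17.1 and 117 CPM in UUO. It did not pass the test there (edgeR, adjusted p = 0.150 in UIR and 0.0553 in UUO). A control library held 57 to 94 macrophages and an injured library 672 to 2070, so a low level in the controls could be missed. In UUO2, where it was highest, *Igkc* lay between 65.4 CPM in intercalated cells and 154 CPM in neutrophils over all classes other than B cells, with proximal tubule at 92.5 CPM and macrophages at 117 CPM. *Ighm*, in contrast, stood in macrophages at 339, 279, 219, 314 and 317 CPM in the controls, 306, 272 and 263 CPM in UIR, and 304, 236 and 314 CPM in UUO. In this class the groups overlap and *Ighm* did not follow *Igkc*. T/NK cells also held *Ighm*, at 52.8 to 218 CPM in the controls, 179 to 237 CPM in UIR and 124 to 223 CPM in UUO, and cDC1 and cDC2 dendritic cells held 92.4 to 167 CPM in the injured libraries. Across 144 sums of 1 class in 1 library, the levels most like *Igkc* among the 8 genes were those of *Igha* (Pearson's r = 0.78 on log2(CPM + 1)), *Jchain* (0.66) and *Ighg2b* (0.66), and the least like were those of *Ighm* and *Ighd* (0.56 each) and *Mzb1* (0.54). Outside the 8, *Iglv1* (0.63), *Ms4a1* (0.63), *Iglc1* (0.61), *Iglc3* (0.61) and *Cd79a* (0.60) were the most like. *B3gnt5* (0.60) and the ribosomal protein gene *Rpl15* (0.59) followed, both above *Ighm*, *Ighd* and *Mzb1*, so such values are not particular to B lineage genes. Sums of 1 library share its depth and free RNA, so these values are descriptions only.

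In empty droplets, taken as barcodes of 10 to 100 UMIs, the groups were not separated. *Igkc* stood at 430, 1147, 1451, 80.8 and 21.6 CPM in the controls, 542, 1117 and 2070 CPM in UIR, and 360, 698 and 2849 CPM in UUO. N1 and N2 thus held as much as UIR1, although their whole libraries stood far below its level. *Jchain* ran from 4.14 to 126 CPM in the controls, from 46.2 to 188 CPM in UIR and from 33.7 to 176 CPM in UUO, again with N1 and N2 the highest controls. Of the 7 genes that could be tested, 0 were called in any of the 3 comparisons with edgeR, where 0%, 2.53% and 0% of 8748 genes were called in UIR against control, UUO against control and UUO against UIR. At an unadjusted p under 0.05, 1 was past the threshold in UUO against control (*Ighg2b*) and 0 in the other comparisons, and DESeq2 also called 0. The log2 fold change of *Igkc* was 0.53 ± 0.87 in UIR and 0.84 ± 0.87 in UUO, and without shared barcodes it was 0.36 ± 0.76 and 1.45 ± 0.75. Every injured library lay above every control for 0 of the 8 genes in UIR and 1 in UUO, and every UUO library above every UIR library for 1, where 8.94%, 19.9% and 7.43% of genes did so. The 1 gene was *Ighd*, at 2.69, 3.24 and 7.47 CPM in UUO, 0 in the UIR libraries and up to 2.65 CPM in the controls. That highest control value is 1 UMI in Ctrl and the lowest UUO value 4 UMIs, so that counting error alone can undo the separation from control.

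The droplets of this window also differ in kind: a barcode of 10 to 100 UMIs had a median between 12 and 17 UMIs in the controls, between 15 and 21 in UIR and between 66 and 73 in UUO. With empty droplets taken by rank instead, as barcodes 45000 to 90000 by UMIs, *Igkc* stood at 23.6, 1.61, 69.4, 3.15 and 2.54 CPM in the controls, 99.8, 426 and 157 CPM in UIR, and 330, 374 and 2639 CPM in UUO. On this definition edgeR called 5 of the 8 higher in UIR, 8 in UUO and 3 between the models, where 27.4%, 38% and 15.2% of genes were. Droplets taken by rank differ in kind as well. Their median ran from 222 to 371 UMIs in the controls, from 190 to 310 in UIR and from 98 to 111 in UUO. The calls in empty droplets thus depend on which barcodes are taken as empty.

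Much of the *Igkc* in the window of control and UIR libraries lay on barcodes that held it, or were called as a cell, in another library. The *Igkc* UMIs of plasma-like barcodes recurred under the same barcode in the other libraries of a set and nowhere else. The first *Ighg2c* barcode shown above, atcacagtcccaactc, held 36871 *Igkc* UMIs in UUO2, then 89 in N1, 88 in N2, 72 in UIR1, 80 in UIR2 and 63 in UUO1, and 0 in the other 5 libraries. Likewise the barcode catggtatcatcacag of the unnumbered UIR library, with 26900 *Igkc* UMIs there, held 51 in Ctrl and 50 in the unnumbered UUO library. Over all their barcodes, Ctrl, N1 and N2 had 11.8%, 52.5% and 53.0% of their *Igkc* UMIs on barcodes that are plasma-like in another library, and AN1 and AN2 had 0%.

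**Figure D5:**
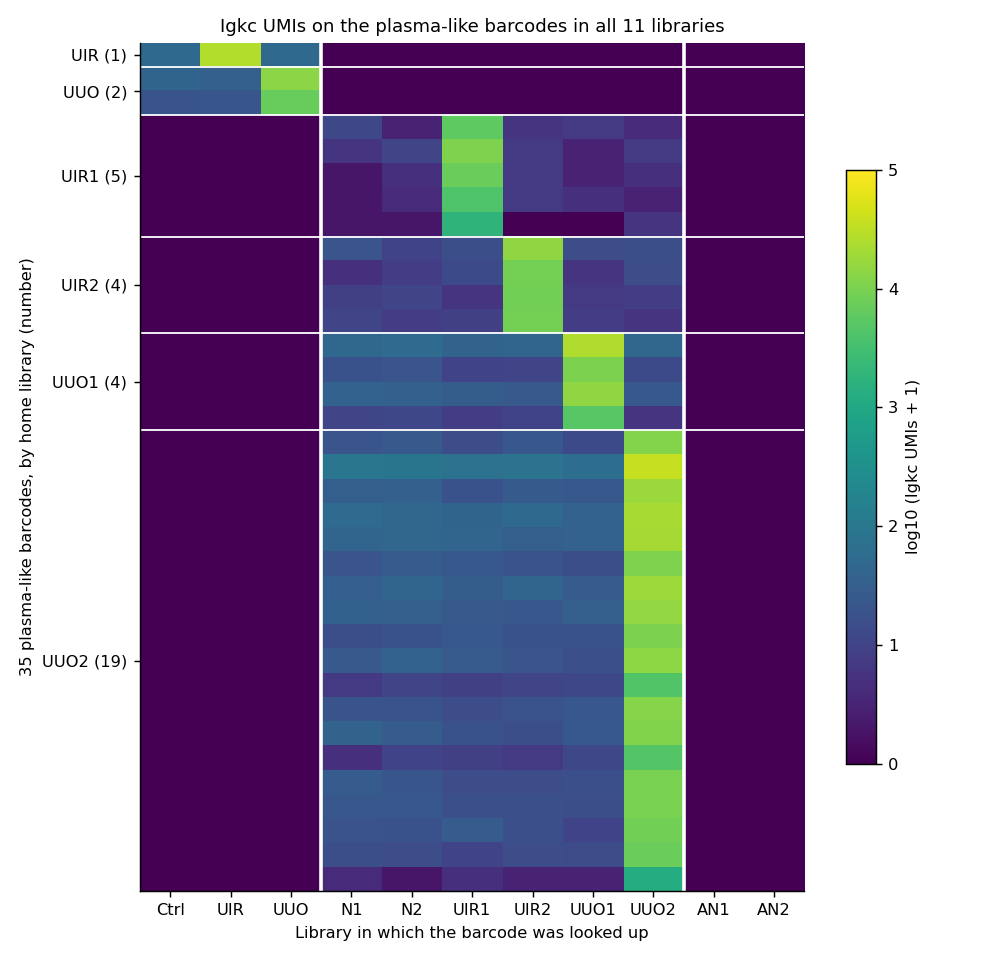
UMIs of *Igkc* (as log10 of UMIs + 1) on the 35 plasma-like barcodes (rows, by the library in which they are plasma-like, with their number) in each of the 11 libraries (columns). Apart from its home library, each barcode holds *Igkc* only within the same set of libraries, and AN1 and AN2 hold none.

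Barcodes that were not called in any library recurred too. In all, 34 barcodes of at most 100 UMIs held at least 5 *Igkc* UMIs in 2 or more libraries of a set while called in none, 6 in the set of Ctrl, 22 in that of N1 and 6 in AN1 with AN2, and *Igkc* took 40.5%, 45.5% and 40.4% of their UMIs. They held 1618 *Igkc* UMIs within their sets and 0 in the libraries outside. An example from each set is shown because the same 16 bases carry like counts in each library.
Set of Ctrl: gtttactcagatggca
Set of N1: ctccatggtgatagat
Set of AN1: aggcattagattgctt
The barcode from the set of Ctrl held 18 *Igkc* UMIs of 46 in Ctrl, 16 of 48 in the unnumbered UIR library and 24 of 47 in the unnumbered UUO library. That from the set of N1 held 23, 34, 23, 16, 17 and 28 *Igkc* UMIs in N1, N2, UIR1, UIR2, UUO1 and UUO2. In AN1 and AN2 the last held 16 of 30 and 14 of 26 UMIs. The source of these barcodes was not tested.

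An *Igkc* UMI of the window was counted as repeated if its barcode held *Igkc* in another library of the set or was called as a cell there. Such a called cell need not hold the gene. The repeated share was 98.8%, 98.9%, 99.01%, 91.6% and 81.9% in the controls, 73.5%, 95.9% and 95.8% in UIR, and 21.9%, 49.0% and 8.20% in UUO. In the controls nearly all of it was therefore repeated, in UUO the smaller part. The rest came to 5.31, 12.8, 14.4, 6.79 and 3.91 CPM in the controls, 144, 46.0 and 86.7 CPM in UIR, and 281, 356 and 2615 CPM in UUO. The order of these groups is not read as a result. It depends on a split by the gene itself and on droplets of unlike size between the groups, and other genes were not ordered after such a split. For *Igha* the repeated share ran from 78.3% to 100% in control, from 66.7% to 88.3% in UIR and from 7.57% to 67.6% in UUO. Other genes were repeated as well. *Slc34a1*, a proximal tubule transporter gene, was repeated at 6.06% to 50.5%, 46.6% to 70% and 20.8% to 45.7%. *Lyz2*, a macrophage gene, was at 12.3% to 96.8% (median 84.7%) in control, 73.6% to 76.8% in UIR and 6.50% to 12.98% in UUO, and *Umod*, a gene of the loop of Henle, at 10.8% to 72.4% (median 66.5%) in control. Since the split uses the gene itself, no test was made on it.

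The make-up of the chains in the window varied within each group. Lambda constant genes took 3.52% ± 1.31 of light chain UMIs in control (SD, n = 5), 4.41% ± 1.13 in UIR (n = 3) and 7.52% ± 7.72 in UUO (n = 3). Of heavy chain UMIs, *Ighm* took 33.0% ± 16.2, 37.7% ± 20 and 38.6% ± 14.5, and *Igha* 54.9% ± 18.0, 46.2% ± 14.9 and 35.6% ± 25.6. Before adjustment the 9 comparisons gave p from 0.179 to 0.9 (exact permutation tests, two-sided, n = 5 and 3, or 3 and 3, where the smallest p is 0.0357 or 0.1). The adjusted p was 0.9 in each, and with so few libraries no adjusted p over 9 comparisons could pass the threshold. By rank and in whole libraries, the differences of UIR and UUO from control had the opposite sign for all of these shares.

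Tubular cells, 7673 in control, 5348 in UIR and 1900 in UUO, held immunoglobulin UMIs at a low level that was higher in injury. *Igkc* stood at 0.327, 0.431, 0, 0 and 0.232 CPM in control tubular cells, 3.56, 20.5 and 8.13 CPM in UIR, and 8.88, 8.79 and 74.0 CPM in UUO. All injured libraries lay above all controls, by 5.19 ± 1.13 on the log2 scale in UIR and 6.51 ± 1.07 in UUO (edgeR, adjusted p = 0.00123 and 0.000107). Genes of other cell types rose beside it in tubular cells: of the same 11 genes, 7 were called higher in UIR and 11 in UUO (edgeR), with medians of 3.03 and 3.13, and none was at 0 in a group. *Lyz2* rose by 4.38 and 4.01, *Ccl5* by 4.95 and 5.25, and *S100a9* by 5.89 in UUO. Their summed level in tubular cells ran from 23.4 to 46.3 CPM in control, from 266 to 608 CPM in UIR and from 299 to 516 CPM in UUO, and their part in the immunoglobulin levels was not tested. The share of tubular cells with an *Igkc* UMI was 0.273%, 0.223%, 0%, 0% and 0.129% in the controls, 4.04%, 17.5% and 9.53% in UIR, and 11.5%, 16% and 59.6% in UUO, and no cell held more than 18. In macrophages, which should lack the gene, the share was 0% in the controls and 2.23% to 38.3% in the injured libraries. These shares are compared neither between groups nor between classes, since the median depth of a tubular cell lay between 2809.5 and 5979.5 UMIs in the controls, 6120 and 9285 in UIR, and 12212.5 and 16532 in UUO, against 1002.5 to 1595 for a macrophage of the injured libraries.

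*Igha* was at 0 in the tubular cells of all 5 controls, at 2.95, 6.28 and 2.95 CPM in UIR, and at 0.185, 4.88 and 10.5 CPM in UUO. Against 3 UMIs over the control group (0.0507 CPM), the level summed over a group is at least 83.3-fold higher in UIR and at least 92.9-fold higher in UUO. Leaving out a library, the bound ran from 58.2 (without UIR1) to 95.6 in UIR and from 56.5 (without UUO2) to 136 in UUO. It need not hold for a single library, since the unnumbered UUO library held 2 UMIs. Bounds here are on CPM, a scale on which the median log2 fold change of all genes was 0.54 in UIR and 0.71 in UUO. *Ighg2b*, also at 0 in all control tubular cells, reached 0, 0.0770 and 1.03 CPM in UIR and 1.48, 0.279 and 2.0 CPM in UUO. In UUO this is at least 21.4-fold higher (from 15.7 without UUO2 to 33.6 without UUO1), whereas in UIR 23 of its 25 UMIs came from UIR2 and it did not pass the test (edgeR, adjusted p = 0.0900). *Ighm* stood at 0 to 0.327 CPM in the controls, 0.662, 2.5 and 2.01 CPM in UIR, and 2.96, 0.628 and 10.7 CPM in UUO, again without overlap with the controls (2.69 and 3.94 on the log2 scale, adjusted p = 0.0212 and 0.00142 with edgeR). *Jchain* and *Iglc2* overlapped between control and injury, at 0.342 to 0.653 and 0.20 to 0.971 CPM in the controls, and *Jchain* did not pass the test (0.72, adjusted p = 0.459 in UIR, and 1.5, adjusted p = 0.126 in UUO, with edgeR).

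*Mzb1* went the other way. It stood at 0.588, 1.19, 0.799, 1.2 and 0.929 CPM in control tubular cells, 0.153, 0.770 and 0.670 CPM in UIR, and 0.370, 0.140 and 0.63 CPM in UUO, and was called lower by edgeR in UIR (-1.27, adjusted p = 0.0298) and UUO (-2.05, adjusted p = 0.00631). The ranges overlap, and in UIR the call was lost on leaving out any of 4 libraries, UIR2, the unnumbered UIR library, AN1 or N1 (adjusted p from 0.0527 to 0.0936). The make-up of the pool moved with it: proximal tubule cells were 6116 of 7673 tubular cells in control, 1725 of 5348 in UIR and 116 of 1900 in UUO, and held 52 of the 54 *Mzb1* UMIs of control tubular cells. Within proximal tubule cells *Mzb1* had a median of 1.11 CPM in control (0.696 to 1.5) and 0.928 CPM in UIR (0.557 to 2.62), and the part of the make-up in the lower level was not tested. In all, 3 of 6 tested genes were called higher in UIR (*Igkc*, *Igha*, *Ighm*) and 4 in UUO (also *Ighg2b*), where 33.3% and 37.4% of 14104 genes were, and 1 lower in each, where 30.9% and 33.2% were. *Igha* and *Ighg2b*, at 0 in the controls, passed the filter on low counts only through injured libraries, and *Ighd* and *Iglc2* did not pass it. These counts thus depend in part on the filter. Within the set of N1, N2 and the numbered libraries alone, the calls in either direction numbered 2 in UIR and 3 in UUO. The shares of all genes given here belong to the fit of all libraries, so these counts are not compared with them. In UIR fewer were called also with N1 and N2 or AN1 and AN2 as the only controls and with the set as a term. Without overlap in CPM, 3 of the 8 lay higher in UIR than in control, 4 in UUO than in control and 0 in UUO than in UIR, where 58.1%, 61.7% and 22.8% of genes did. Between UUO and UIR, 0 of 6 were called with edgeR, 0 at an unadjusted p under 0.05 and 0 with DESeq2, where 3.93% of genes were called higher.

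Heavy chains in tubular cells were set beside those of the plasma-like barcodes of the same library, and the values lay close for all 5 genes in UUO2. There, *Ighm*, *Igha*, *Ighg1*, *Ighg2b* and *Ighg2c* took 32.5%, 29.5%, 10.4%, 4.94% and 22.5% of heavy chain UMIs in plasma-like barcodes and 29.0%, 28.3%, 12.5%, 5.39% and 24.9% in tubular cells. By rank, the empty droplets of that library held 30.7%, 32.8%, 11.8%, 4.26% and 19.6%. *Igha* took 81.7% of tubular heavy chain UMIs in the unnumbered UIR library and 81.4% in UUO1, where all plasma-like barcodes led with *Igha*, and 2.90% in the unnumbered UUO library, where none did. In the other injured libraries some genes stood apart. In UIR1 *Ighg3* took 26.4% of tubular heavy chain UMIs and 46.9% of those in its empty droplets by rank, but 0.008% of those in its plasma-like barcodes. *Ighm* took 18.3% of tubular heavy chain UMIs in the unnumbered UIR library, 31.9% in UIR2, 46.4% in the unnumbered UUO library and 10.5% in UUO1, but at most 1.39% of those in the plasma-like barcodes of these 4. Tubular bars rest on 69 to 314 heavy chain UMIs per library.

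Set against the empty droplets of the same library, tubular cells held far less. The 4 genes that could be tested within libraries were all called lower in tubular cells by edgeR with the library as a block, with log2 fold changes of -8.22 for *Igkc*, -7.28 for *Igha*, -7.2 for *Ighm* and -6.74 for *Jchain* and adjusted p from 1.31e-08 to 2.71e-06. Without shared barcodes the values were -7.87, -6.98, -7.18 and -6.37, and against empty droplets by rank they were smaller, at -5.97 for *Igkc*, -5.67 for *Igha* and -5.86 for *Ighm*. Of all genes tested in the first of these comparisons, 15.4% were lower. The 11 genes of other cell types were all called lower there too, with a median of -6.60 against -7.24 for the 4. These fold changes are over all 11 libraries, and in the controls 81.9% to 99.01% of window *Igkc* was repeated. The tubular *Igkc* level was 3.57%, 4.81% and 5.16% of that in empty droplets by rank in UIR and 2.69%, 2.35% and 2.80% in UUO. For the controls no such value is given, since their tubular cells held 5, 4, 0, 0 and 3 *Igkc* UMIs. *Lyz2*, a macrophage gene, stood at 4.78%, 7.57% and 4.88% in UIR and 2.45%, 2.34% and 1.77% in UUO on the same scale. The values of *Igkc* and *Lyz2* lie in overlapping ranges in each model, and whether tubular cells make *Lyz2* was not tested.

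Genes that act with the 8 moved as follows over whole libraries. Of 15 B cell genes, 7 were called higher in UIR and 14 in UUO and none lower (edgeR), where 36.2% and 41.8% of all genes were called higher, with *Cd22*, an inhibitory receptor, up by 2.75 and 4.21 and *Spib*, a B cell transcription factor, up by 4.20 in UUO. The median log2 fold change of the list was 0.76 in UIR and 3.17 in UUO, against 0.07 and 0.10 over all genes. Of 15 plasma cell genes (medians 0.42 and 0.90), 6 were higher and 3 lower in UIR, and 9 higher and 2 lower in UUO, so that in UIR the share higher was near that of all genes. *Irf4*, which drives plasma cell fate, rose by 2.88 and 3.84, and *Tnfrsf17*, a survival receptor of plasma cells, by 2.22 and 3.21. *Eaf2* fell by 1.23 and 2.05, *Fkbp11*, which encodes a protein of the endoplasmic reticulum, fell by 0.87 and 0.72, and *Edem1*, of the disposal of misfolded glycoproteins, fell by 0.50 in UIR. Of 7 survival and homing genes tested (medians 2.07 and 3.22), 4 were higher in UIR and 6 in UUO and 1 lower in each, with *Tnfsf13b*, which encodes the B cell survival factor BAFF, up by 2.65 and 3.52 and *Il6* by 3.30 and 5.07. As for *Ighd*, levels of B cell genes differed between the models, with 14 of the 15 higher in UUO than in UIR, where 16.3% of all genes were.

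Immunoglobulin receptors moved both ways. Of 10, 6 were higher and 4 lower in each model over whole libraries, where 36.2% and 41.8% of all genes were called higher and 31.3% and 36.3% lower. *Fcgr1*, a macrophage IgG receptor, rose by 3.20 in UIR and 4.29 in UUO, whereas *Fcamr*, a receptor for IgA and IgM, fell by 3.1 and 4.72. In tubular cells *Pigr*, the receptor that carries polymeric IgA and IgM into the urine and other secretions, stood at 33.4, 26.3, 15.9, 28 and 41.1 CPM in the controls, 152, 144 and 173 CPM in UIR, and 254, 341 and 402 CPM in UUO. The 3 groups did not overlap, and the rise was 1.91 ± 0.21 in UIR and 2.87 ± 0.21 in UUO (edgeR, adjusted p = 3.83e-06 and 5.54e-08). Within proximal tubule cells, whose share of the tubular pool differed between groups as given for *Mzb1*, *Pigr* ran from 12.5 to 44.3 CPM in control and from 18.7 to 38.2 CPM in UIR, and stood at 0, 110 and 79.2 CPM in UUO on 20, 32 and 64 cells. The ranges of control and UIR overlap there, and the part of the make-up of the pool in the rise of *Pigr* was not tested. Both *Cubn* and *Lrp2*, which take up filtered protein in the proximal tubule, fell by 4.54 in whole UUO libraries, where proximal tubule cells were also fewer, and the part of cell numbers in this was not tested.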

How the data were processed

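The deposited files hold raw UMI counts per gene and barcode for the 11 libraries. All barcodes are included, and no normalization or correction for ambient RNA or doublets was applied by the authors to these files. Per the file headers and the submitters' processing notes, the counts come from Cell Ranger 3.1.0 and the mm10 build. The study's methods name another version of that software. The 8 genes and all lists were chosen with earlier results of these data known, and the text names all 8 genes and members of the lists.

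Cells were barcodes above 1 in 10 of a high UMI count (percentile 99 among the top 3000), plus barcodes of at least 500 UMIs that differed from the empty profile (10000 simulations, adjusted p of 0.01). Barcodes over 30% mitochondrial or 5% hemoglobin UMIs or under 200 genes, and the 7.5% with the highest doublet score, were left out. Clusters (2000 variable genes without immunoglobulin genes, 40 components, 20 neighbors, Leiden resolution 1) were named by markers. Counts were summed per library and kind of barcode, with at least 20 cells for a class, and tested with edgeR 4.0.16 (quasi-likelihood, TMM, filter on low counts, 3 groups in 1 model, Benjamini-Hochberg over all genes tested, threshold 0.05). The SE of an edgeR log2 fold change is its absolute value divided by the square root of the F statistic, not an SE estimated by the fit. A fold against a group at 0 was computed against 3 counts over that group. Shares were compared over libraries with two-sided exact permutation tests. On data simulated for UIR against control with 200 changed genes, edgeR recovered 197 in whole libraries, 198 in empty droplets and 198 in tubular cells, with 7, 10 and 8 false calls. The changed genes were well counted in every library and all genes had the same fixed spread. These numbers therefore do not carry over to genes near 0 or with wide spread, as some of the 8 are.

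Alternatives were DESeq2 1.42.0, other scalings and filters, subsets of controls, other definitions of empty droplets and cells, and leaving out each library. The sets of libraries that share barcodes, the removal of shared barcodes, the sums without plasma-like barcodes and the description of plasma-like barcodes before the doublet filter were chosen after seeing the data. The numbers in library names do not pair the samples: in whole libraries, deviations of same-numbered libraries correlated from -0.06 (N1 and UUO1) to 0.20 (N1 and UIR1), those of the unnumbered libraries at 0.17 to 0.46, and those of libraries of unlike number at 0.13 to 0.39. Sequences and gene positions come from the GRCm38 genome, and cell barcodes from the deposited files. Scripts ran in R 4.3.3 and Python 3.11.15 (scikit-learn 1.9.0, scipy 1.17.1, leidenalg 0.10.2, pandas 2.3.3, matplotlib 3.10.9, numpy 2.4.6).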

Additional observations from a re-analysis of the deposited data

Results flagged for a closer look

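Of the plasma-like barcodes, the doublet score removed 1 of 5 in UIR1, 1 of 4 in UIR2 and 19 of 19 in UUO2, so they stand outside the comparison of kept cells. All of UUO2's lay among the 7.5% of barcodes with the highest score. Whether they are doublets was not tested.

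In tubular cells of the controls, *Ighd* stood at 0.155 CPM in AN2, the highest, and at 0 in the other 4 libraries; this rests on 2 UMIs in 1556 cells. Where 4 libraries are at 0, any UMI in the other sets it apart, so nothing is read from it. Of 22 control levels looked at in this way 1 stood apart. The rule is nominally set to flag about 1 in 20 by chance, a rate that was not checked on these data.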

How the results depend on the processing

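Of the alternatives, DESeq2 left the number of called genes within 1.5 times in each comparison, and the 8 genes were called in UUO whole libraries under every setting run but 2, with N1 and N2 as the only controls and within the set of N1 (7 each), also on leaving out each library (8 to 8). The cause of the changes that follow was not tested, and these counts are not set against the share of all genes called in the same setting. In whole libraries the 7 genes called in UIR became 3 with N1 and N2 or with AN1 and AN2 as the only controls or within the set of N1 (5 to 7 on leaving out 1 library), and the 5 between the models became 3, 3 and 2 (2 to 6). In empty droplets the 0 called in UIR, in UUO and between them became 5, 8 and 3 by rank, 3 and 4 in UIR and UUO with AN1 and AN2 alone, and 1 in UUO without shared barcodes (0 to 0 without 1 library). In tubular cells the 4 called in UIR became 1 with N1 and N2 alone and 2 with AN1 and AN2 alone, with the set as a term, within the set of N1 and in tubular classes other than proximal tubule (3 to 4). The 5 called in UUO became 3 within the set and in either tubular part (5 to 6), the 0 between models became 1 with predicted doublets kept (0 to 0), and the 4 against empty droplets became 8 without the filter on low counts (4 to 5). With the library number as a replicate block, 7, 8 and 4 genes were called in whole libraries, 0, 0 and 0 in empty droplets and 5, 5 and 0 in tubular cells.

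The plasma-like share of UIR over control, 0.0444 percentage points, no longer passed with 6 of 7 markers (0.0317) or with N1 and N2 or AN1 and AN2 alone (0.0444 each, where the smallest p is 0.2), and ran from 0.0393 to 0.0542 without 1 library. Its call was also lost on leaving out any 1 of the 8 libraries, where the exact permutation test gave p = 0.0571 or 0.0952, the smallest those numbers allow. That of UUO, 0.0408, passed with doublets kept (0.192), with 4 of 7 markers (0.0671) and with both (0.224), and ran from 0.0233 to 0.0611. UUO minus UIR, -0.00369, turned to 0.000411 with a 50% mitochondrial limit, 0.141 with doublets kept, 0.0182 with 4 of 7 markers and 0.169 with both, and ran from -0.0212 to 0.0167. The chain shares of empty droplets changed sign in several settings, all in percentage points. By rank and in whole libraries, lambda in UIR and UUO against control turned to -16.5, -15.7, -10.8 and -12.8, *Ighm* to -35.7, -50.7, -26.4 and -39.8, and *Igha* to 28.7, 51.9, 18.1 and 21.3. With N1 and N2 alone, lambda in UIR came to -0.231, *Ighm* to -12.2 in UIR and -11.2 in UUO, and *Igha* in UIR to 10.4. Without shared barcodes *Ighm* came to -1.97 in UUO and -10.2 between the models. Without 1 library, for UIR, UUO and UUO minus UIR, lambda ran from 0.424 to 1.54, -0.395 to 6.85 and -1.29 to 5.96, *Ighm* from -4.06 to 15.6, -2.70 to 10.0 and -9.93 to 9.73, and *Igha* from -16.7 to -2.0, -32.6 to -7.11 and -23.9 to 1.59.

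B cells were tested between the models only with predicted doublets kept and at least 5 cells a library, a setting chosen after seeing the data, since after the doublet score at most 1 UIR library had enough of them. The number of cells limits the plasma-like share of a single control library, *Iglc2* is uncertain beside *Iglc3*, and plasma-like values of UUO2 rest on barcodes the doublet score removed.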

Other observations

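Lambda variable and constant genes did not go together in the plasma-like barcodes. *Iglv1* was the leading lambda variable segment in 33 of the 35 barcodes, with a median of 85 UMIs, although *Igkc* was the leading constant gene in all of them. In 10 barcodes *Iglv1* had more UMIs than the lambda constant genes *Iglc1*, *Iglc2* and *Iglc3* together. The highest *Iglv1* count, 609 UMIs, lay on a UUO1 barcode with 35 lambda constant and 24961 *Igkc* UMIs. Over the series *Iglv1* held 4913 UMIs, 2 or 3 in each control library and 2481 in UUO2.

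In all, 40 barcodes held more than 10% immunoglobulin UMIs, of which 5 were not plasma-like by their markers. Of these 5, 3 lay in UIR1, and 1 of these 3 was the B cell barcode with 59.5% immunoglobulin UMIs.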
